A study of Mus musculus with 6 samples.

Results

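Satellite cells, or muscle stem cells (MuSCs), repair skeletal muscle. The transcriptome described here is that of control MuSCs after 3 d in culture, taken from the 3 libraries labelled wild type among the 6 of the series. No genotype was compared. MuSCs were sorted from limb muscle as VCAM1+ CD31- CD45- Sca1- cells and grown on Matrigel in medium with 30% foetal bovine serum, 1% chicken embryo extract and 10 ng/ml basic FGF. The labels give these mice as wild type on C57BL/6, whereas the paper draws the controls as *Piezo1*+/+; *Pax7*CreERT2/+ mice injected with tamoxifen, and 1 μM 4-OH TMX, the active form of that drug, was also in the culture medium. The age of these mice is not given in the sources used here, the labels do not say whether each library is 1 mouse, and no freshly isolated cells were sequenced, so a level here is a level in culture and not a change from quiescence.

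In resting muscle, MuSCs are quiescent and express *Pax7*. After injury or plating they enter the cell cycle and switch on *Myod1*, and their progeny either return to quiescence or express *Myog*, leave the cell cycle and fuse into myofibres. The growth medium used here, rich in serum and FGF, is known to favour division over fusion.

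The libraries were told apart by the reverse transcription primer, which holds a barcode of 10 bases, a unique molecular identifier (UMI) of 8 random bases and an oligo-dT run. The barcode is what assigns a read to control 1, 2 or 3, and the UMI, in capitals, is what makes a count stand for 1 cDNA molecule. The first bases of the T run are shown after it.
control 1: gccattctccNNNNNNNNtttttttttt
control 2: ttaccgaggcNNNNNNNNtttttttttt
control 3: tcggccttacNNNNNNNNtttttttttt

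The 3 libraries held 740936, 931168 and 891531 UMI counts. Of 20654 genes in the count table, 10171 had at least 3 counts in every control library and are called detected here, while 3316 had no count in any of them. Levels are given as CPM, a gene's counts for every 1000000 counts of its library, as mean ± SD over the 3 libraries. The floor of 3 counts stood at 4.05, 3.22 and 3.37 CPM in controls 1, 2 and 3. As each count stands for 1 cDNA molecule and oligo-dT priming favours poly(A) tails, CPM was compared between genes without division by transcript length. Priming at other places was not measured, and division by exon length was tried as an alternative.

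Control 2 stood apart from controls 1 and 3 in many of the results, and this is given first. Between pairs of libraries, the Pearson correlation of log2 CPM across 7831 genes with at least 10 counts in every library was 0.956 for controls 1 and 2, 0.965 for controls 1 and 3 and 0.961 for controls 2 and 3. Whether a gene varied beyond counting error was tested with a chi-square test of its 3 counts against the library sizes, with Benjamini-Hochberg adjustment and calls at an adjusted p under 0.05. Of 8527 genes with a mean of at least 10 counts, 708 were called, that is 8.3%. The share rose with the level, from 4.14% of genes with a mean under 100 counts to 15.4% from 100 to 300 counts and 37.3% above, so a list of abundant genes has to be read against the shares at its own level. When 1 library was left out, 161 genes were called between controls 1 and 3, 499 between controls 1 and 2 and 416 between controls 2 and 3. Values listed by library are in the order of controls 1, 2 and 3, and the number of calls made without control 2 is given for the lists and classes whose calls are described.

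*Lgals1*, which encodes galectin-1, had the highest mean at 4126 ± 446 CPM (SD, n = 3), followed by the ferritin heavy chain gene *Fth1* at 3870 ± 231 CPM and *Actb*, which encodes β-actin, at 3454 ± 301 CPM. *Spp1*, which encodes the secreted phosphoprotein osteopontin, came next with 3419, 2019 and 2981 CPM in the 3 libraries. These were followed by *Pkm*, *Pfn1*, *Cd63*, *Rplp0*, *S100a6* and *Eno1*. Ranks 11 to 25 were taken by *Ppia*, *Vim*, *Ftl1*, *Atp5b*, *Hspa8*, *Tmsb4x*, *Prdx1*, *Ncl*, *Chrna1*, *Esd*, *Aldoa*, *Gapdh*, *Hsp90ab1*, *Ppp1r14b* and *Lmna*, the last at 1519 ± 107 CPM. Among these 25 genes, *Chrna1*, the α subunit of the muscle acetylcholine receptor, is the one best known as specific to skeletal muscle. Divided by exon length, which was not matched for *Aldoa*, 7 of the 25 stayed among the first 25, and *Chrna1* moved from rank 19 to rank 198. *Myod1* then moved from rank 32 to 58, *Myf5* from 4851 to 3117, *Myog* from 5485 to 2856 and *Mki67* from 3522 to 6078.

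No single gene dominated the libraries. The first gene held 0.413% ± 0.0446 of the counts, the first 10 held 2.82% ± 0.264, the first 100 held 14.1% ± 0.611 and the first 1000 held 50.8% ± 0.577 (SD, n = 3 each). Levels of at least 1000 CPM were reached by 82 detected genes and levels from 100 to 1000 CPM by 2407, and these 2407 genes held 60.2% of all counts. The median level of a detected gene was 40.4 CPM. The plot of level against rank shows this slow decline and the place of the MuSC genes on it.

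**Figure D1:**
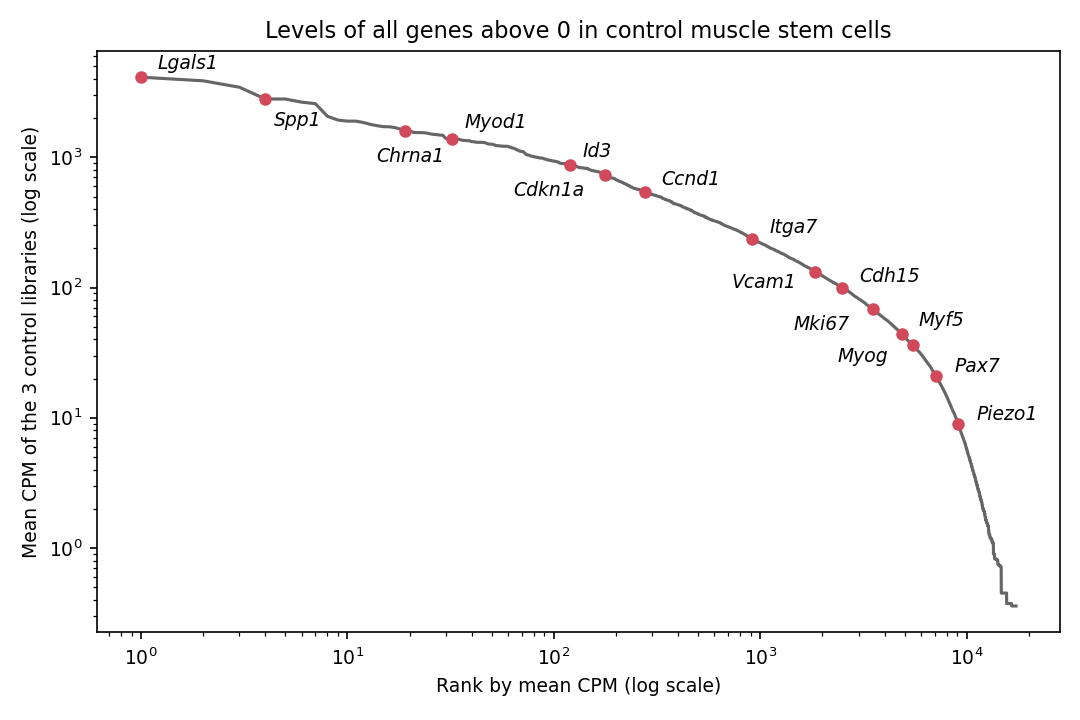
Mean CPM of every gene with a count in the 3 control libraries (y, log scale) against its rank (x, log scale), with 15 genes marked in red. *Myod1* lies at rank 32 and *Chrna1* at rank 19, whereas *Myf5*, *Myog* and *Pax7* lie at ranks 4851, 5485 and 7091, of which the first and the second become 3117 and 2856 after division by exon length.

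By annotated gene type, protein-coding genes held 95.7% ± 0.202 of the counts and processed pseudogenes 2.40% ± 0.0978. Many ribosomal protein, glycolytic and ferritin genes have near-identical processed copies, and how reads matching several places were counted is not given in the sources used here, so their levels are uncertain. *Ftl1-ps1*, named as a pseudogene of the ferritin light chain gene, was listed at 1378 ± 174 CPM beside 1787 ± 242 CPM for *Ftl1*. Counts of 1 gene annotated as ribosomal RNA, ENSMUSG00000106106 (chr17:39846353-39848827, GRCm38), were 630, 1197 and 1715, which placed it at rank 36.

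Protein synthesis took the largest part of the counts among 22 gene classes that together held 32.8%. The 90 cytosolic ribosomal protein genes held 6.58%, 6.45% and 6.62% of the 3 libraries, a sum that differed little. Of the 85 tested, 18 were called, 21.2% beside 8.3% of all genes, with 7 called without control 2 and 4 without control 3. All 18 had a mean of at least 300 counts, where 25% of 72 were called beside 37.3% of all genes. Of the 90, 86 were detected, with *Rplp0* and *Rpl13* the highest. The 100 genes of oxidative phosphorylation followed with 3.54%, 3.01% and 3.61%, lowest in control 2. Chaperones and chaperonin held 2.52%, 2.53% and 2.46% of the 3 libraries. Actin and its binding proteins 2.48% ± 0.102, translation factors 2.07% ± 0.115 and transcription factor families 2.04% ± 0.0193 (SD, n = 3 each). Splicing factors held 1.64% ± 0.0888, the proteasome 1.57% ± 0.0278, the 19 glycolytic genes 1.30% ± 0.111 and the 3 ferritin genes 0.704% ± 0.0632. Extracellular matrix genes held 0.638% ± 0.0817, with *Serpinh1*, a collagen chaperone, and *Sparc*, a matrix glycoprotein, as the highest. After division by exon length the shares of ribosomal proteins and oxidative phosphorylation were 10.4% and 5.58%.

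**Figure D2:**
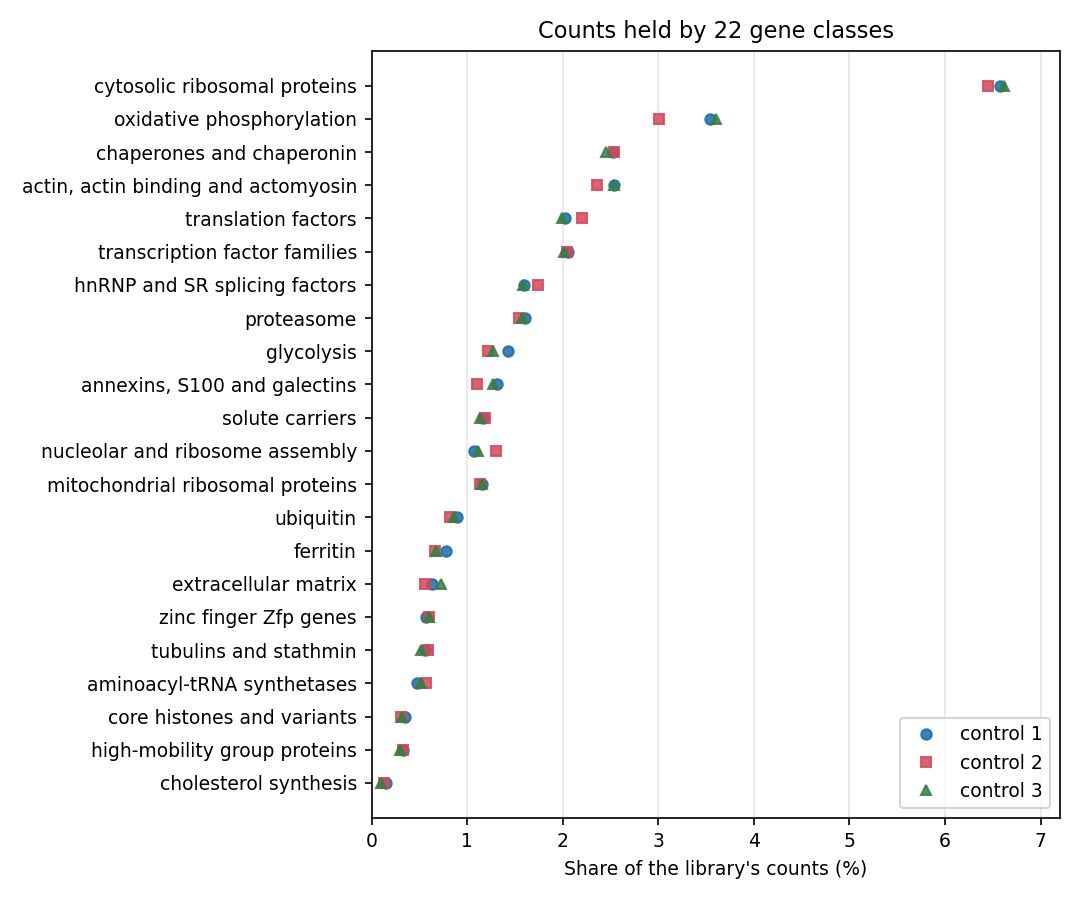
Share of each control library's counts held by 22 gene classes (x, percent, from 0), with 1 symbol per library. Cytosolic ribosomal proteins lie between 6.45% and 6.62% in all 3 libraries, and control 2 lies below the others for oxidative phosphorylation.

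The cells carried the lineage genes of MuSCs, with *Myod1* far above the rest. *Myod1* (chr7:46376474-46379099), the transcription factor of activated myogenic cells, had 1472, 1316 and 1368 CPM, a mean of 1385 ± 79.8 (SD, n = 3). It was not called as varying between libraries (adjusted p = 0.235 in the chi-square test). *Pax7*, the factor that specifies MuSCs, had 13.5, 27.9 and 21.3 CPM from 10, 26 and 19 counts. In each library *Myod1* had between 47.1 and 109 times the molecules of *Pax7*, and 209 times per kb of exon over the 3 libraries. Of the 32 genes in the lineage list, 29 were detected, and *Myod1* made up 25.2% of their summed level of 5504 ± 204 CPM.

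The adhesion and surface genes by which MuSCs are recognised were present at middle levels. *Itgb1* and *Itga7*, which encode the chains of a laminin receptor, had 642 ± 48.8 and 237 ± 4.05 CPM, *Itga7* being nearly the same in each library. *Cdh15*, which encodes M-cadherin, had 72.9, 94.5 and 131 CPM, lowest in control 1 and highest in control 3 (adjusted p = 0.00919), and it was called without control 2 but not without control 1 or 3. *Vcam1*, the antigen of the positive gate, had 116, 137 and 145 CPM, while *Ncam1* had 170 ± 16.9 and *Des*, the muscle intermediate filament gene, 500 ± 86.1. *Cxcr4*, *Eya4*, *Pax3* and *Fgfr4* were near the floor, at 8.16, 7.29, 6.92 and 6.07 CPM on average, and *Chodl* had no count. Of the 25 lineage genes with enough counts for the test, 8 were called (*Myf5*, *Cdh15*, *Des*, *Sdc4*, *Megf10*, *Fgfr1*, *Cd9* and *Peg3*), 32.0% beside 8.3% of all genes, with *Cdh15* alone called without control 2 and 3 of the 8 without control 3.

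Within the small families of myogenic control genes, 1 member usually led. Among the myogenic regulatory factors, *Myf5* had 37.8, 31.1 and 62.8 CPM and *Myog* 54.0, 3.22 and 50.5 CPM, so that these neighbours overlapped, both far below *Myod1*, and *Myf6* was under the floor in every library. Of the E proteins, the dimer partners of MyoD, *Tcf3* led with 223 ± 13 CPM, and *Tcf12* at 107, 89.1 and 111 and *Tcf4* at 95.8, 89.1 and 96.5 CPM overlapped. The Id proteins bind E proteins and keep them from DNA. *Id3*, *Id2* and *Id1* had 875 ± 159, 553 ± 63.9 and 367 ± 33.3 CPM in an order without overlap of neighbours, while *Id4* had 19.2 ± 11.3. *Id3* alone had from 2.99 to 4.85 times the molecules of *Tcf3*, and 8.85 times per kb of exon. Of the MEF2 factors, which act with MyoD in differentiation, *Mef2a* had 96.5 ± 11.3 and *Mef2d* 35.4 ± 3.28 CPM, and *Mef2c* and *Mef2b* were under the floor in every library.

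**Figure D3:**
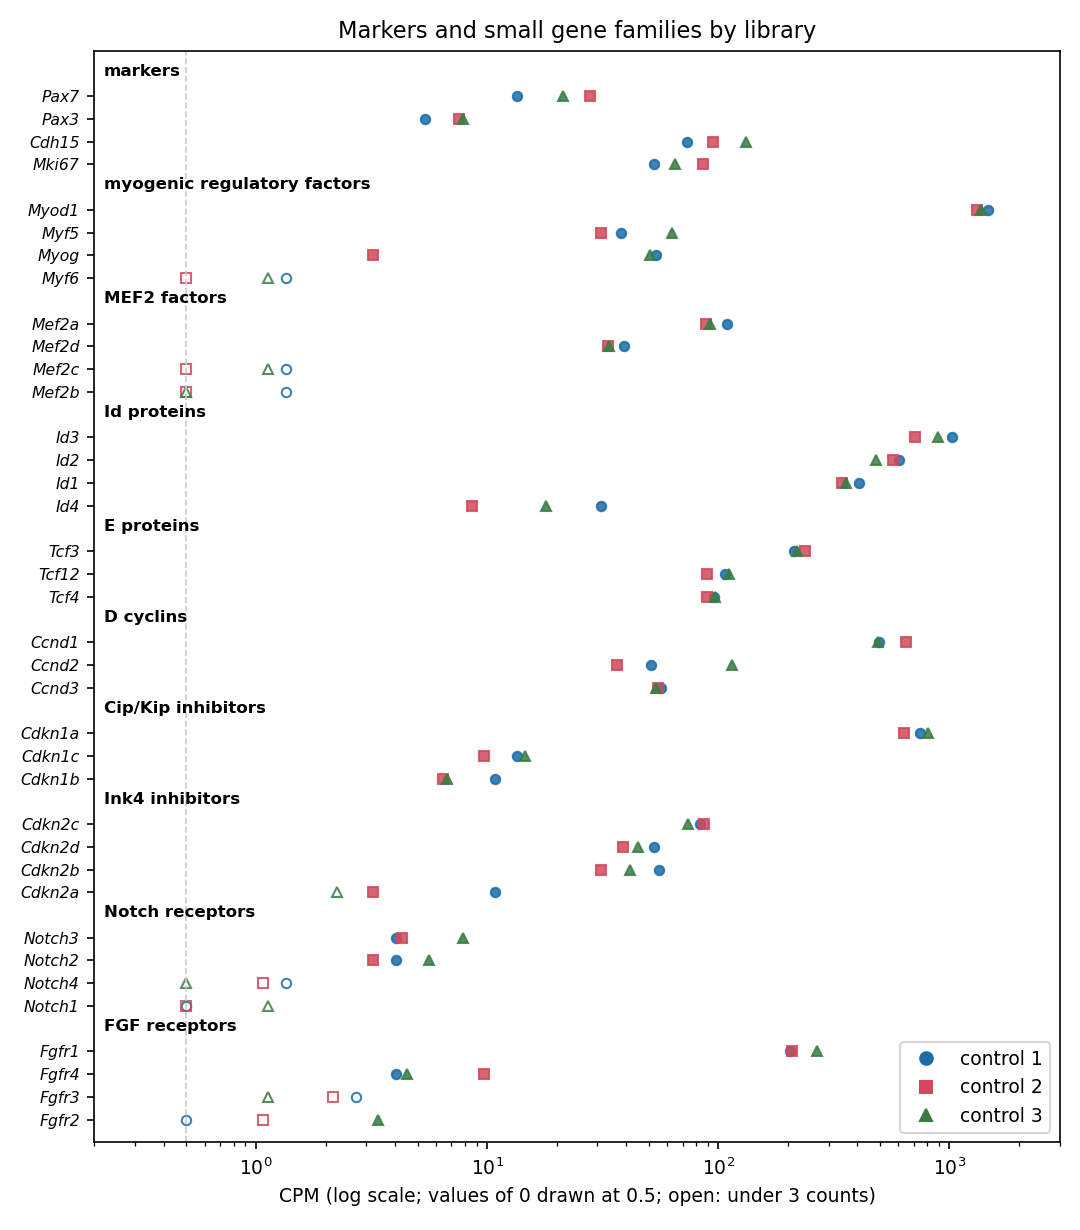
CPM (x, log scale, values of 0 drawn at 0.5) of marker genes and of every member of 9 small families, with 1 symbol per control library and open symbols under 3 counts. *Myod1* exceeds the other myogenic regulatory factors in each library, and *Myog* is near the floor in control 2 at 3.22 CPM against 54.0 and 50.5.

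Markers of other cell types of muscle were mixed, with many near or under the floor and some well above it, and their part in the results was not tested. Of 8 endothelial genes in the table, *Egfl7* was detected, at 4.67 ± 1.83 CPM, *Pecam1*, which encodes CD31, had 1, 2 and 0 counts, and the list summed to 18.9, 8.59 and 7.85 CPM. *Ly6a*, which encodes Sca1, had 2, 2 and 3 counts, and *Ptprc*, which encodes CD45, had no row in the table used here. The 5 haematopoietic genes summed to 59.7 ± 5.55 CPM, of which *Laptm5* made up 72.9%. The macrophage genes *Cd68* and *Lyz2* had 5, 13 and 10 and 0, 11 and 0 counts. The fibro-adipogenic list summed to 260, 377 and 443 CPM lowest in control 1 and highest in control 3. Its most abundant gene was *Col3a1*, followed by *Cd34* at 119 ± 58.6 CPM and *Dcn* with 18, 23 and 37 counts, while *Col1a1* had 1, 7 and 17 counts, *Pdgfra* 4, 3 and 8, *Mfap5* 2, 0 and 8, *Lum* 4, 1 and 0 and *Pi16* none. The smooth muscle and pericyte list summed to 818, 521 and 971 CPM, mostly *Des* and *Acta2*. *Cspg4* had 28, 25 and 25 counts, *Pdgfrb* 3, 3 and 10 and *Mcam* 4, 4 and 2, and *Myh11*, *Rgs5* and *Abcc9* had at most 1 count. *Scx*, a transcription factor best known from tendon, had 221, 131 and 204 CPM, *Mkx* had 2, 10 and 3 counts, and *Tnmd*, *Fmod* and *Thbs4* were under the floor everywhere. Of the neural and Schwann cell genes, *Tubb3* and *Mbp* were detected. In bulk RNA, fewer cells of a type and less RNA per cell cannot be told apart.

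Genes of quiescence ranged from rank 782 to under the floor. Of 29 listed genes in the table, 19 were detected, beside 10171 of all 20654 genes. The median level over the list was 11.9 CPM and the sum was 1074 ± 27.7 CPM. The highest were *Gadd45g* at 272 ± 27.3 CPM, the Notch target gene *Hes1* at 148 ± 21.5, *Cd34* at 119 ± 58.6, *Pdk4* at 110 ± 3.63, *Btg2* at 77.3 ± 17.6 and *Gas1* at 64.8 ± 11.2. Notch signalling is known to hold MuSCs in quiescence, and its receptors were near or under the floor, with *Notch3* at 5.40 ± 2.13 and *Notch2* at 4.29 ± 1.21 CPM and *Notch1* and *Notch4* under the floor in every library. *Heyl*, *Tenm4*, *Col15a1*, *Sparcl1* and *Rgs5* were under it too, and *Calcr* had no row in the table used here. *Cd34* was the 1 quiescence gene called among 15 tested, with 53, 172 and 91 counts, highest in control 2 (adjusted p = 8.95e-09), a call lost without control 2. This is 6.67% of those tested, beside 8.3% of all genes. Of the 15, 12 had a mean under 100 counts, where 4.14% of all genes were called.

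The genes of activation and biosynthesis ranged from the most abundant in the libraries to some under the floor. The 32 listed genes summed to 12320, 12792 and 11010 CPM, and 24 were detected with a median of 142 CPM over the list. *Hspa8*, an Hsc70 chaperone gene, *Ncl* and *Npm1*, which encode nucleolar proteins, *Eif5a*, *Ran* and *Hspa5* were the highest, all from 958 to 1720 CPM on average. *Myc* had 259, 359 and 284 CPM and *Odc1*, the first enzyme of polyamine synthesis, 482, 691 and 408 CPM, both highest in control 2 and neither called without it. The immediate early genes were uneven, in that *Jun* had 277 ± 40.1 and *Junb* 180 ± 41.0 CPM, whereas *Fos* had 14, 4 and 5 counts and *Atf3*, *Socs3* and *Il6* were under the floor in every library. Of 23 activation genes tested 12 were called, 52.2% beside 8.3% of all genes, and 3 without control 2 and 7 without control 3. Of the 10 with a mean of at least 300 counts 6 were called, beside 37.3% of all genes at that level.

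Genes of both parts of the cell cycle were expressed almost without exception. All 44 genes of G1/S and DNA replication in the table were detected, as were 45 of 46 genes of G2/M and mitosis, *Kif20a* with 1 count per library being the exception. *Rrm2*, a subunit of ribonucleotide reductase, led the first list with 1342 ± 83.0 CPM at rank 39, followed by *Ccnd1*, *Rrm1*, *Cdk4*, *Mcm7* and *Mcm6*. The mitotic list was led by *Cks1b* at 460 ± 68.0, *Ube2c* at 455 ± 3.49, *Bub3* at 433 ± 13.6, *Ccnb1* at 398 ± 4.97, *Cdc20* at 394 ± 35.1 and *Birc5* at 376 ± 17.9 CPM. *Mki67*, the gene of the proliferation antigen Ki-67, had 52.6, 85.9 and 65.1 CPM and was not called (adjusted p = 0.170 in the chi-square test). *Ube2c* and *Ccnb1* were almost level across libraries.

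Replication genes were highest in control 2. The G1/S list summed to 6700, 7873 and 6777 CPM, and control 2 was the highest library for 32 of its 44 genes, beside 38.5% of all genes tested. The replicative helicase genes were each highest in control 2. Of them *Mcm7*, at 273, 373 and 261 CPM, was called, and *Mcm3*, *Mcm4* and *Mcm5* were not (adjusted p = 0.173, 0.165 and 0.286 in the chi-square test). Also called were *Mcm2* at 157, 274 and 227 CPM (adjusted p = 1.04e-04) and *Mcm6* at 224, 346 and 294 CPM (adjusted p = 6.90e-04). Without control 1 neither *Mcm2* nor *Mcm6* was called, and without control 2 *Mcm2* still was. Of the 44 genes 10 were called, 22.7% beside the 8.3% of all genes, and 2 without control 2. The G2/M list summed to 7265, 7806 and 7276 CPM. Control 2 was the highest library for 28 of its 45 genes tested too, beside 38.5% of all genes. Of the 45 G2/M genes 7 were called, 15.6% beside 8.3% of all genes, 1 without control 2 and 2 without control 1. By level, 10% were called under a mean of 100 counts, 21.1% from 100 to 300 counts and 16.7% above. The shares of all genes at these levels were 4.14%, 15.4% and 37.3%. Among the D cyclins, *Ccnd1* had 498, 651 and 490 CPM, *Ccnd2* 51.3, 36.5 and 114 and *Ccnd3* 56.7, 54.8 and 53.8, so that *Ccnd1* led in each library while the other members overlapped. *Ccnd2* was called as varying, also without control 2 (adjusted p = 0.00131), but not without control 3.

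Of the cell cycle inhibitors, *Cdkn1a*, which encodes p21, was abundant beside the cyclins. It had 746, 635 and 805 CPM, from 0.975 to 1.64 times the molecules of *Ccnd1* in the same library. The other Cip/Kip genes were low, with 12.6 ± 2.58 CPM for *Cdkn1c* and 7.99 ± 2.44 for *Cdkn1b*. *Cdkn2c*, *Cdkn2d* and *Cdkn2b* of the Ink4 family had 81.6 ± 6.73, 45.4 ± 7.0 and 42.7 ± 12.1 CPM, the last 2 overlapping, and *Cdkn2a* had 8, 3 and 2 counts. The p53 gene *Trp53* and its target genes *Mdm2* and *Ccng1* were high too, *Mdm2* having 491, 408 and 665 CPM. The list of inhibitors also counts the p53 target genes *Mdm2* and *Ccng1*. Of its 13 genes tested, 10 were lowest in control 2, beside 31.8% of all genes, and 4 were called (*Cdkn1a*, *Trp53*, *Mdm2* and *Ccng1*), 30.8% beside 8.3% of all genes. These 4 are the members with a mean of at least 300 counts, where 37.3% of all genes were called, and of them *Trp53* and *Mdm2* were called without control 2 and *Trp53* and *Ccng1* without control 3.

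Genes of commitment spanned a wide range, with *Chrna1* and *Ankrd1* far above the others. *Chrna1* had 1796, 1380 and 1619 CPM and made up 35.4% of the summed level of the list, and *Ankrd1*, a cardiac and muscle ankyrin repeat gene, had 1228 ± 53.4 CPM. They were followed by *Tnnt2* at 222 ± 15.4, by the receptor clustering genes *Dok7* at 191 ± 12.4 and *Rapsn* at 178 ± 7.91 and by the receptor subunit gene *Chrnd* at 141 ± 34.8 CPM. *Musk*, the receptor kinase that organises the junction, had 56.1 ± 10.2 CPM and *Chrng*, the fetal receptor subunit, 75.6, 29.0 and 47.1 CPM. Of 43 genes in the table, 26 were detected, and *Myh3*, *Myh8*, *Myl1*, *Mymx*, *Klhl41*, *Cav3* and *Casq2* were under the floor in every library. Of the 14 genes of mature myofibres in the table, 9 were under the floor everywhere, among them *Myh1*, *Myh4*, *Pvalb* and *Mb*, and *Eno3* made up 91.5% of their sum.

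Commitment genes were lowest in control 2. The list summed to 5031, 3866 and 4637 CPM, and of its 26 genes tested 22 were lowest in control 2, beside 31.8% of all genes. *Myog* had 40, 3 and 45 counts (adjusted p = 1.57e-07). *Mymk*, which encodes the fusion protein myomaker, had 32, 8 and 20 counts, and *Tnni1*, a slow troponin gene, had 24, 2 and 17. The giant sarcomeric protein genes *Ttn* and *Neb* had 107, 34.4 and 71.8 CPM and 81.0, 34.4 and 51.6 CPM. Control 2 was the lowest library for each of these genes, and the sum of the list without control 2 was 4834 CPM against 4512 with it. The test called 14 of the 26 genes, 53.8% beside 8.3%, none of 28 between controls 1 and 3 (9 at an unadjusted p under 0.05) and 7 of 25 between controls 2 and 3. In the same libraries the G1/S genes had the opposite order, control 2 being highest, and the part of the one order in the other was not tested.

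Promoter sequences were taken from the RefSeq table (GRCm38.p6), which gives 250 bases before and 50 after each annotated start. MyoD and its E protein partners bind E-boxes, and the palindrome CAGCTG, the same on both strands, was searched in each window as the E-box best known for them. It was in 16.3% of all 32851 windows, in 14.5% of 9982 windows of detected genes and in 13 of 36 windows (36.1%) of commitment genes, some genes having more than 1 window. Where such windows overlap, as in *Jph2* and *Tnni1*, the same match was counted in each. A match is a description of letters and not of binding. *Chrna1*, *Chrng* and *Tnnt2* had 2 matches in a window, and 1.90% of all windows had at least 2, and their stretches are shown together with that of *Musk*, with the match in capitals and 20 bases to each side. They lie at chr2:73580357-73580450 on the minus strand, chr1:87205636-87205704, chr1:135836091-135836202 and chr4:58285874-58285919 on the plus strand.
Chrna1: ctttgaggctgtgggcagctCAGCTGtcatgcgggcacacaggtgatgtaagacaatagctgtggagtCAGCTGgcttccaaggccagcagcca
Chrng: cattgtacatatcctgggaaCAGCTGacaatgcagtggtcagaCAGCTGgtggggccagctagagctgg
Tnnt2: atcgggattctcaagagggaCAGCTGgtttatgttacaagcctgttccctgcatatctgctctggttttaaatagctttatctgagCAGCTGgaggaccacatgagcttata
Musk: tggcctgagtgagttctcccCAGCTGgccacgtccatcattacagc

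In *Chrna1* the matches begin 92 and 44 bases before the annotated start, and in *Chrng* 155 and 132 bases before it. Of the genes with a match and enough counts for the test, *Chrna1*, *Chrng*, *Jph2*, *Mylpf*, *Tnni1* and *Acta1* had control 2 as their lowest library, whereas *Musk* had 47.2, 53.7 and 67.3 CPM and *Tnnt2* 231, 231 and 204 CPM, lowest in control 1 and control 3. *Acta1* was not called and had 62.1, 61.2 and 89.7 CPM. Of all 26 commitment genes tested, with or without a match, 22 were lowest in control 2, so this order was not particular to genes with a match.

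Receptors for growth factors and cytokines were led by *Tnfrsf12a*, the receptor of TWEAK, with 712 ± 41.0 CPM, and by *Axl*, the receptor kinase for Gas6, with 654 ± 57.9. *Fgfr1* had 204, 208 and 268 CPM, and it was the main FGF receptor transcript, since *Fgfr4* had 3, 9 and 4 counts and *Fgfr2* and *Fgfr3* at most 3. *Met*, the HGF receptor known for MuSC activation, had 168 ± 19.7 CPM, and *Ryk*, *Smo*, *Ddr1*, *Il6st*, *Bmpr1a*, *Ddr2*, *Musk* and *Igf2r* completed the first 12 with 133 to 53.1 CPM. Of 77 receptor genes in the table, 54 were detected and 16 were under the floor everywhere, and the list summed to 3220 ± 125 CPM. Among 36 tested, *Fgfr1* and *Smo* were called, 5.56% beside 8.3%, and neither without control 2 or without control 3. Of the 36, 31 had a mean under 100 counts, where 3.23% were called beside 4.14% of all genes. Without control 3, 2 other members were called among 35 tested.

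Guidance, chemokine and lipid receptors were led by *F2r*, the thrombin receptor, at 320 ± 5.13 CPM, *Lpar1* at 153 ± 12.1, *Ackr3* at 153 ± 7.70 and *Epha2* at 137 ± 14.3, followed by *Plxnb2*, *Nrp2*, *Adgre5*, *Neo1*, *Adora2b*, *Unc5b*, *Nrp1* and *Robo1*. *Cxcr4*, which shares the ligand of *Ackr3*, was near the floor. None of the 21 tested was called by the chi-square test, beside 8.3% of all genes, and 0 had an unadjusted p under 0.05. Of the 21, 17 had a mean under 100 counts, where 4.14% of all genes were called. Of the adhesion genes, *Itgb1* was followed by the hyaluronan receptor *Cd44* at 358 ± 39.0 CPM, by *Sdc4* at 242 ± 53.7, by *Itga7* and by *Sdc2* and *Sdc1* at 169 ± 9.74 and 143 ± 1.71, with *Itgav*, *Dag1*, *Itgb4*, *Gpc4*, *Sdc3* and *Itga6* after them. *Itga6* had 30, 13 and 41 counts, lowest in control 2 (adjusted p = 0.00682), and *Itga4* had none. Of 16 adhesion genes tested, *Itga6*, *Itgb4* and *Sdc4* were called, 18.8% beside 8.3% of all genes, and without control 2 none was, with 0 at an unadjusted p under 0.05. *Piezo1* (chr8:122481698-122551329), the mechanosensitive channel gene that the study is about, had 11, 5 and 6 counts, a level of 8.98 ± 5.12 CPM at rank 9099, and was too low for the test.

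After *Myod1*, the transcription factor families were led by *Hes6* and *Ybx3*. *Hes6*, a Hes-family gene known to promote myogenic differentiation, had 1282, 744 and 1052 CPM, lowest in control 2, and *Ybx3* and *Ybx1*, cold shock domain proteins, had 1020 ± 94.1 and 772 ± 24.4 CPM. With *Id3*, *Id2*, *Trp53* and *Id1* among them, these were followed by *Atf4*, the factor of the integrated stress response, at 327 ± 68.9 CPM, by *Myc*, by *Cebpb* at 297 ± 18.8 and by *Sox4* at 286 ± 22 CPM. Of 493 genes in these families 284 were detected, and 20 of 236 tested were called, 8.47% beside 8.3% of all genes, with 3 called without control 2 and 11 without control 1.

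Variation between the control libraries was mostly counting error for low genes and exceeded it for abundant ones. Among genes with a mean of 10 to 30 counts 2.81% were called, against 5.28% from 30 to 100 counts, 15.4% from 100 to 300 and 37.3% of 536 genes above, where counting error is small. The median coefficient of variation (CV) of those 536 genes was 8.42%, where counting alone gives 4.60%. Called genes of the lowest and highest of these ranges had a median CV beyond counting of 56.9% and 13.1%. A gene with a low level therefore had to vary far more to be called.

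**Figure D4:**
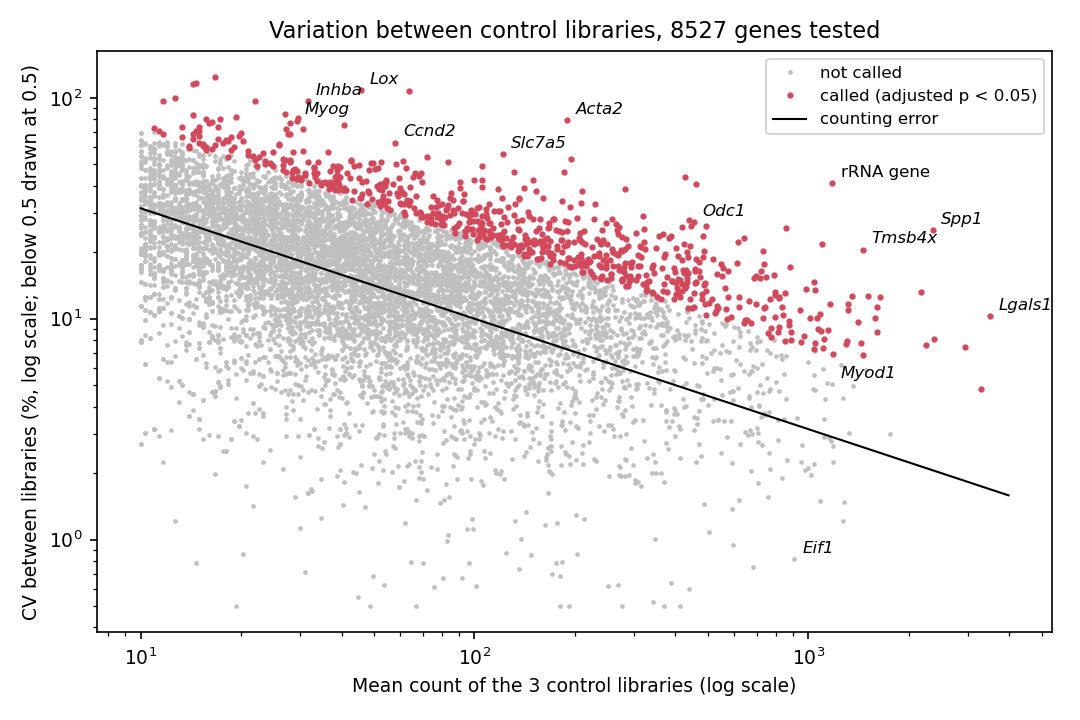
CV between the 3 control libraries (y, percent, log scale) against the mean count (x, log scale) of the 8527 genes tested, with the 708 called genes in red and counting error as a black line. *Acta2*, *Spp1* and the annotated rRNA gene stand above genes of like counts, whereas *Myod1* and *Eif1* are not called.

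The 25 genes with the largest CV beyond counting, among called genes with a mean of at least 20 counts, ran from 108% to 53.0%, and *Ndufb2* lay just outside at 52.7%. *Lox*, a collagen cross-linking enzyme gene, had 14, 19 and 104 counts and *Inhba*, the gene of an activin subunit, 19, 8 and 68. *Acta2*, the smooth muscle actin gene that cultured myogenic cells also express, had 184, 70.9 and 413 CPM (chr19:34241090-34255590). These genes and *Mir6236*, *Endod1*, *Ccnd2*, *Mgst3* and *Pmaip1* were highest in control 3. Control 1 was the highest library for 12 of the 25, namely *Cldn4*, *Gm9800*, *Myog*, *Khdrbs3*, *Znrf2*, *Cotl1*, *Chmp4b*, *Tnnt1*, *Mymk*, *Arrb2*, *Lgr6* and *Mtmr6*, and control 2 for others, among them *Gm42047*, *Hus1*, *Slc7a5* and *Arsb*. Control 2 was the lowest library for 15 of the 25 and for 324 of the 708 called genes (45.8%), beside 31.8% of all genes tested. Of the 25, 13 were also called without control 2, among them *Lox*, *Inhba*, *Acta2*, *Cldn4* and *Ccnd2*, and *Myog*, *Tnnt1*, *Mymk* and *Slc7a5* were not. Without control 3, *Lox*, *Inhba* and *Ccnd2* were no longer called.

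The libraries also differed by whole gene classes. Of 87 oxidative phosphorylation genes tested, 76 were lowest in control 2, beside 31.8% of all genes, and 37 were called, 42.5% beside 8.3%. By level, 26 of 44 with a mean of at least 300 counts were called (59.1% beside 37.3% of all genes there) and 8 of 29 from 100 to 300 counts (27.6% beside 15.4%). *Cox4i1*, a subunit of cytochrome c oxidase, had 1173, 837 and 1112 CPM and was not called without control 2, and 5 of the class were called without control 2 and 23 without control 3. Of 43 nucleolar and ribosome assembly genes, 35 were highest in control 2, beside 38.5% of all genes, and 14 were called, 32.6% beside 8.3%, none of them without control 2 (10 at an unadjusted p under 0.05) and 6 without control 1, with *Mybbp1a* at 196, 342 and 248 CPM and *Nolc1* at 321, 464 and 340. By level, 6 of 10 were called at 300 counts or more, beside 37.3%, and 8 of 24 from 100 to 300 counts, beside 15.4%. Translation factors had control 2 as the highest library in 42 of 54 genes, beside 38.5% of all genes. Of these 54, 15 were called (27.8% beside 8.3%), and 6 without control 2. At 300 counts or more 10 of 23 were called, beside 37.3% of all genes there. The cytosolic ribosomal proteins were not mostly highest in control 2. They were lowest in control 2 for 36 and highest for 30 of 85 genes, beside 31.8% and 38.5% of all genes. Of these 85, 18 were called, all with a mean of at least 300 counts (25% of 72 beside 37.3% of all genes there). Of the 18, 12 were lowest in control 2, beside 45.8% of all called genes. The number called was 7 without control 2 and 4 without control 3. Extracellular matrix genes were highest in control 3 for 26 of 36 genes, beside 31.1% of all genes, with 13 called (36.1% beside 8.3%), 7 without control 2 and 5 without control 3, as *Col3a1* at 147, 154 and 259 CPM and *Thbs1* at 310, 314 and 490 CPM, and cholesterol synthesis genes were lowest in control 3 for 15 of 17, beside 31.3% of all genes, as *Sqle* at 202, 161 and 117 CPM. Of these 17, 3 were called (17.6% beside 8.3%), 2 of them also without control 2 and 1 of them also without control 3. Without control 1, 1 of 18 tested was called, a gene not among the 3. The fibro-adipogenic list, which shares *Col3a1*, *Col1a1* and *Dcn* with the matrix genes, also had its highest sum in control 3, with 18, 23 and 37 counts of *Dcn*, 1, 7 and 17 of *Col1a1* and 4, 3 and 8 of *Pdgfra*, and the part of such cells in the matrix result was not tested.

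**Figure D5:**
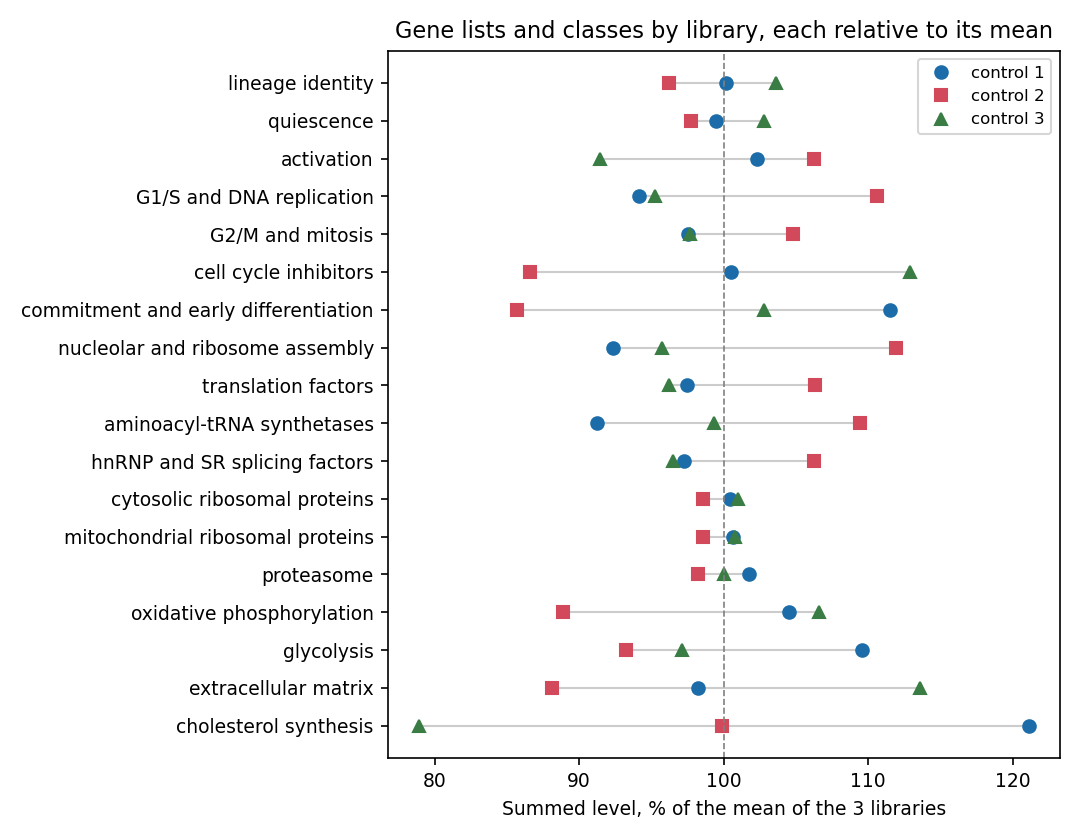
Summed level of 7 gene lists and 11 gene classes in each control library, as percent of the mean of the 3 libraries (x; dashed line at 100). Control 2 lies at 85.7% for commitment genes and at 111% and 112% for G1/S and nucleolar genes, and ribosomal proteins lie within 98.6% to 101%.

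Some measures of RNA content moved with the libraries too. The annotated rRNA gene made up most of the 0.0854%, 0.129% and 0.192% of counts in rRNA, highest in control 3, and *Mir6236*, an annotated miRNA record, had 28, 18 and 145 counts. The nuclear RNA *Malat1*, named after its values were seen, had 821, 460 and 385 CPM. The part of these differences in the results above was not tested. Without the rRNA gene and *Mir6236*, a setting chosen after seeing the data, the number of called genes was 705. The library sizes were kept in that setting, so the statistic of every other gene was unchanged. The number therefore cannot show the part of RNA content in the calls.

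The most even genes among 536 with a mean of at least 300 counts were *Taldo1*, *Rnf187*, *Cs*, *Ube2c*, *Psmc3*, *Ywhah*, *Cct5*, *Arf1*, *Eif5* and *Eif1*. *Eif1*, an initiation factor gene, had 1066, 1063 and 1055 CPM and *Cs*, citrate synthase, 404, 402 and 397 CPM, each closer together than counting error gives on average. The genes were picked for the smallest spread among the 536, so this closeness follows from the selection and was not tested. *Gapdh* and *Actb*, often used for normalisation, had 1772, 1491 and 1385 CPM and 3706, 3536 and 3120 CPM, and both were called, as were 37.3% of all genes with a mean of at least 300 counts.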

How the data were processed

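UMI counts per gene of the 3 control libraries were read from the deposited count table, and the 3 mapped columns of the other group were not used (0 columns were unmapped). According to the labels and the submitters' processing notes, the authors made cDNA from 500 pg of RNA with oligo-dT primers, amplified it by 12 cycles of PCR, mapped reads with STAR 2.7.9a to GRCm38, assigned them with featureCounts 2.0.1 and counted UMIs with UMI-tools 1.1.1, giving deposited counts that are not normalised. Priming with oligo-dT favours RNA with a poly(A) tail. With 65536 possible UMIs, the gene with the highest count (3687) would lose about 2.84% of its molecules to shared UMIs, if all came from 1 position.

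CPM was computed from library totals. The chi-square test used library sizes scaled by TMM in edgeR 4.0.16, genes with a mean of at least 10 counts and Benjamini-Hochberg adjustment over all of them. The paper gives an N of 3 for these cells without defining it there, and the labels do not say whether the libraries are separate mice, so the test measures the spread between libraries, which may be technical. The CV beyond counting is the SD left after subtracting the counting variance, over the mean. Floors cover counting error only. Names were matched to GENCODE M21 for 20239 of 20654 genes, and 415 were not matched.

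Named genes were the markers, the 25 highest genes, the highest 6 of each list (12 for receptors and transcription factors) and members under the floor, all members of small families, the 25 most variable and 10 most even genes, and genes standing in as examples of a called list or class, which were chosen after their values were seen. Some genes that this rule takes are not reported here. The members, lists and classes used here were chosen with earlier results of these data known. R 4.3.3, DESeq2 1.42.0 and scipy were used for alternatives.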

Additional observations from a re-analysis of the deposited data

How the results depend on the processing

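The number of genes called as varying was 708, and it was 681 with library totals, 679 with DESeq2 size factors, 680 and 717 with a mean of at least 5 or 30 counts, 594 after thinning to the smallest library and from 161 to 499 with 1 library left out. Of the 25 most variable genes, 24 or 25 were again among the first 25 under other scalings or the lower minimum, 21 after thinning, 18 when ranked by edgeR tagwise dispersion, 10 with a mean of at least 30 counts and 10 or 11 with 1 library left out. Detected genes numbered 10171, and 12146 or 7831 with a floor of 1 or 10 counts. Division by exon length changed the share of ribosomal proteins from 6.55% to 10.4% and of oxidative phosphorylation from 3.38% to 5.58%. It changed the summed level from 5504 to 3925 CPM for lineage, from 1074 to 1132 for quiescence, from 12041 to 8816 for activation, from 7117 to 4495 for G1/S, from 7449 to 5600 for G2/M and from 4512 to 3227 for commitment genes, and the rank of *Myod1* from 32 to 58. With 1 library left out, that rank lay between 32 and 36. TMM scaling left these shares and sums within the spread between libraries. At this depth *Piezo1*, *Pax3* and *Cxcr4* were detected but had too few counts for the test, and 3 libraries of 1 group cannot separate differences between cultures from those between library preparations. No paired analysis was possible because the libraries form 1 group.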
